A study of Caenorhabditis elegans with 2 samples.

Results

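The genes described here are the sperm genes of Caenorhabditis elegans that carry the symbols msp, spe or ssp with a number, together with gsp-3, gsp-4 and fer-1. They were chosen by symbol among the nuclear protein-coding genes of assembly WBcel235 and number 75 of 19973. The rule on symbols uses no measured value, although the set was picked with earlier results of these data known. The set holds 31 msp genes (major sperm protein), 29 spe genes (spermatogenesis defective), 12 ssp genes (sperm-specific family) and the 3 others. All msp genes lie on chromosomes II (13 genes) and IV (18 genes). Of the 75 genes, 19 lie on chromosome I, 33 on chromosome IV and none on chromosome X. A pair of neighbouring genes shares the symbol ssp-9 in the annotation used, and both were counted.

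The study measured where AMA-1, which is the largest subunit of the polymerase that makes messenger RNA (RNA polymerase II), was bound in chromatin of whole young adult worms, by chromatin immunoprecipitation and sequencing. Its only group had 2 biological replicates of strain YL489, of mixed sex, with the genotype unc-119(ed3) III; vrIs104, where vrIs104 is a transgene with the pie-1 promoter, AMA-1 fused to GFP and FLAG, the puf-5 3′UTR and an unc-119(+) rescue. The pie-1 promoter is used to express transgenes in the germline. The antibody is labelled ama-1, the sources used here do not say if it recognised the tag or the endogenous protein as well, and the share of males is not given. There was no second condition, and the control experiment named by the labels was not analysed here. In whole animals, polymerase on a gene in few cells and little polymerase in many cells cannot be told apart.

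Nematode sperm have no flagellum and crawl. Their movement is driven by the assembly of major sperm protein into filaments, and MSP released from sperm also acts as a hormone that triggers oocyte maturation and contraction of the gonadal sheath. The sperm genes are transcribed in spermatocytes, before the meiotic divisions, and transcription then stops. In hermaphrodites sperm are made in the last larval stage, before the germline switches to oocytes, whereas males go on making sperm as adults. Most products of the spe genes act in spermatocytes and sperm, where some build the membranous organelles and cytoskeleton, others turn the round spermatid into a crawling spermatozoon, and others act at fertilization.

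Each deposited list holds regions with a summit and the authors' own signal value, whose scale is not given, and regions were ranked within a list by that value with rank 1 as the strongest. The optimal list holds 887 peaks. The candidate lists, which hold many weak regions, have 30000 regions for the pooled replicates, 28020 for replicate 1 and 30000 for replicate 2, with median signals of 11.1, 5.09 and 7.28. A gene was counted where a summit lay inside it or within 500 bp of either end. The lists give no read counts, so the depth of the libraries is unknown.

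The sequence of the msp genes is shown first because it bears on where a region can be placed. All 31 msp genes have a single exon and no annotated untranslated region, and 28 of them have the same coding length of 384 bases. These 28 coding sequences all differ from each other, with a median identity of 92.4% over 378 pairs, and encode 11 distinct proteins with a median residue identity of 99.2%. Below are the first 90 coding bases of 5 msp genes, 5′ to 3′ from the ATG, read from WBcel235 (ce11), with capitals for bases that differ from the commonest base of the 28 genes. They are msp-49 (chrII:5194366-5194455, plus strand), the msp gene with the strongest region, msp-113 (chrIV:5297962-5298051, plus strand) and msp-65 (chrIV:5316523-5316612, plus strand), the most alike pair at 99.5% identity over the whole coding sequence, and msp-63 (chrII:5797359-5797448, minus strand) and msp-10 (chrIV:9837649-9837738, plus strand), the least alike at 86.2%. The capital C of msp-113 and msp-65 marks a place where C and G were equally common and G was taken.
msp-49: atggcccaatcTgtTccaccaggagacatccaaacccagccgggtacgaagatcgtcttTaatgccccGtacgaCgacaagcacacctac
msp-113: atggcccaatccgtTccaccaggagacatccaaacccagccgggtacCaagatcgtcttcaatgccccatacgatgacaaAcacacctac
msp-65: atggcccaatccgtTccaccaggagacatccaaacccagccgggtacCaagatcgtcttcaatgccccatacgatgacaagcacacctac
msp-63: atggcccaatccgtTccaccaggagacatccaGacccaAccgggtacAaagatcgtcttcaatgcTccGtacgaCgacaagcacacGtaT
msp-10: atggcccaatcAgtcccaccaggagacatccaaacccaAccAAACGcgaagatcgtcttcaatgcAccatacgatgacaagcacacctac

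The sequence just upstream is alike as well. AGATAA, a sequence that GATA factors are known to bind, was searched on both strands of the 250 bp before each annotated 5′ end. It was found at 19 of 31 msp genes (61.3%), 3 of 29 spe genes (10.3%), 2 of 12 ssp genes (16.7%) and 18.7% of all genes. In every one of the 19 msp genes the letters were on the strand of the gene and began 79 to 84 bp before the start, with a median of 81 bp. Within 74 to 90 bp before the start, a range chosen after these distances were seen, the core GATA was at 25 of 31 msp genes (80.6%), 4 of 12 ssp genes (33.3%), 1 spe gene (3.45%) and 4.29% of all genes. The start is the annotated 5′ end, which is the start codon at msp genes. An untranslated region is annotated at 28 of 29 spe genes and 3 of 12 ssp genes, so this range can be another place there. A match of letters describes the sequence and shows no binding. The 30 bases around the match are shown, with AGATAA in capitals, for the 4 msp genes with the best pooled ranks, namely msp-49 (chrII:5194270-5194299, plus strand), msp-65 (chrIV:5316430-5316459, plus strand), msp-57 (chrIV:5062485-5062514, plus strand) and msp-31 (chrII:4916629-4916658, minus strand). The 3 spe genes with a match follow. In spe-41 (chrIII:3444356-3444385, minus strand) the letters are on the strand of the gene, as in msp genes, but 163 bp before the start. In spe-39 (chrV:6785409-6785438, plus strand) and spe-44 (chrIV:12454231-12454260, minus strand) they lie on the other strand and read TTATCT.
msp-49: agatcaggacagAGATAAgagaggaatttg
msp-65: gatctaggacaaAGATAAgaaggttgctat
msp-57: gatctaggacagAGATAAaaaggatgctat
msp-31: gatctaggacagAGATAAgagagaaatttg
spe-41: gaaaaatataaaAGATAAactaaaaaaaaa
spe-39: tcccataaaattTTATCTattttttctcat
spe-44: aaaattcattatTTATCTgccaacgaaaat

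Optimal peaks were found at 3 of the 75 sperm genes (4%), where the share over all protein-coding genes was 4.48%. All 3 were spe genes on chromosome I, namely spe-12, spe-9 and spe-48. No msp gene, no ssp gene and none of gsp-3, gsp-4 and fer-1 had one. For the 31 msp genes, 0 leaves an exact 95% upper limit of 11.2%, which lies above the share of all genes, so that a lower share than that of all genes was not detectable in the optimal list. Of the spe genes, 10.3% had an optimal peak (3 of 29, 95% interval 2.19% to 27.4%). These intervals treat genes as independent and cover counting error only.

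More genes were reached by the candidate lists. In the pooled list 6 of 31 msp genes had a region (19.4%, interval 7.45% to 37.5%) and 16 of 29 spe genes did (55.2%, interval 35.7% to 73.6%), with 46.2% of all genes. Of the ssp genes 2 of 12 had a pooled region (16.7%), and of gsp-3, gsp-4 and fer-1 none. The intervals of the msp and spe shares overlap, and the msp interval lies below the share of all genes.

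In each replicate the share of msp genes was below that of spe genes. In replicate 1 a region was at 3 msp genes (9.68%) and 14 spe genes (48.3%), with 51.0% of all genes. Replicate 2 had a region at 5 msp genes (16.1%) and 18 spe genes (62.1%), with 52.5% of all genes. A region in both replicates was found at 0 of 31 msp genes (upper limit 11.2%) and at 10 of 29 spe genes (34.5%, interval 17.9% to 54.3%), where all genes had 39.2%. Here and below, this rule asks each replicate for a region anywhere in the window, and not for the same region. At spe-18, for example, the replicate 1 summit lay 222 bp upstream and the best replicate 2 summit 1041 bp inside the gene. Under this rule the msp and spe intervals do not overlap, though the windows are longer at spe genes, and no ssp gene and none of the 3 others passed. Among the 5000 strongest regions of both replicates, 5 spe genes had one (17.2%) and no other sperm gene did, where all genes had 10.2%.

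**Figure D1:**
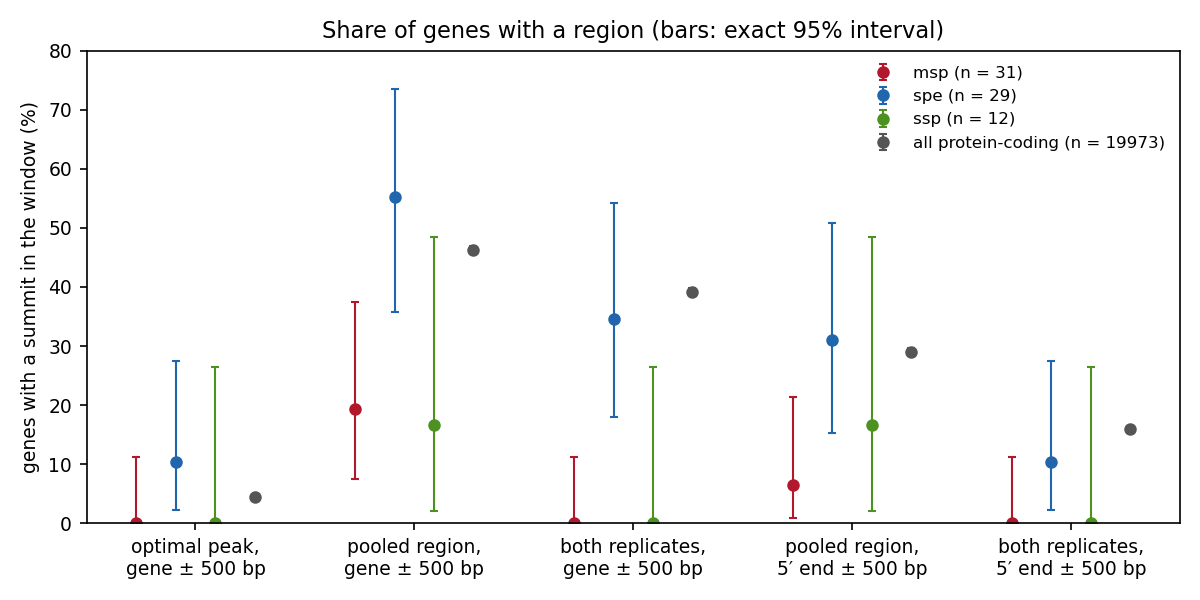
Share of genes (vertical axis, percent) with a summit in the window, for 31 msp, 29 spe and 12 ssp genes and all 19973 protein-coding genes under 5 rules (horizontal axis). Points are shares and bars are exact 95% intervals. In the pooled list within 500 bp of the gene, msp genes are at 19.4% and spe genes at 55.2%, with all genes at 46.2%.

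Many sperm genes had no candidate region at all. In none of the pooled and replicate lists was there a region at 22 of 31 msp genes (71%), 9 of 12 ssp genes (75%), 2 of the 3 others and 7 of 29 spe genes (24.1%), in all 40 of 75 sperm genes (53.3%), where the share over all genes was 34.7%. The spe genes without a region included spe-10, spe-11, spe-38, spe-42, spe-49 and spe-54.

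The families differ in length, which sets the size of the window. The median length was 384 bp for msp genes, 330 bp for ssp genes and 2407 bp for spe genes, and 2027 bp for all genes. Within 500 bp of the 5′ end, where the windows are equal, a pooled region was found at 2 of 31 msp genes (6.45%, interval 0.791% to 21.4%), 9 of 29 spe genes (31%, interval 15.3% to 50.8%) and 2 of 12 ssp genes (16.7%), with 29.0% of all genes. For regions in both replicates the counts there were 0 msp genes (upper limit 11.2%) and 3 spe genes (10.3%, interval 2.19% to 27.4%), with 15.9% of all genes. The msp and spe intervals overlap in this window under both rules. Optimal peaks in this window were at 1 spe gene (spe-48, 3.45%) and at no msp gene, with 1.51% of all genes. Equal windows thus kept msp genes below all genes in the pooled list, and brought the spe share near that of all genes. Per kb of gene window, the pooled list had 0.164 regions at msp genes, 0.324 at spe genes, 0.118 at ssp genes and 0.363 over all genes.

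Where a region was present within 500 bp of the gene, msp genes had weaker median ranks than spe genes in all 3 candidate lists, but this order turned under other rules. The best pooled rank of the 6 msp genes with a region had a median of 11154, with 10506 to 13319 as quartiles. For the 16 spe genes the median was 5065, with wider quartiles of 1884.8 to 16053, and for the 9237 genes of the genome with a region it was 6670. The strongest msp region ranked 6004 and the strongest spe region 37. The replicate medians were 26698 (replicate 1) and 16059 (replicate 2) for msp genes and 5436.5 and 3486.5 for spe genes. The msp medians rest on 6, 3 and 5 genes. With summits within 500 bp of the 5′ end, the median best pooled rank was 10641.5 for the 2 msp genes and 20688 for the 9 spe genes. Both msp summits were near the edge of that window. The summit at msp-49 (rank 6004) was 495 bp from the 5′ end and also 112 bp past the 3′ end. That at msp-57 (rank 15279) was 466 bp upstream. Without regions near small RNA genes it was 13926 for 5 msp genes and 15068 for 15 spe genes. Under both of these rules the msp median was the stronger, so the order of the medians depends on the rule.

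**Figure D2:**
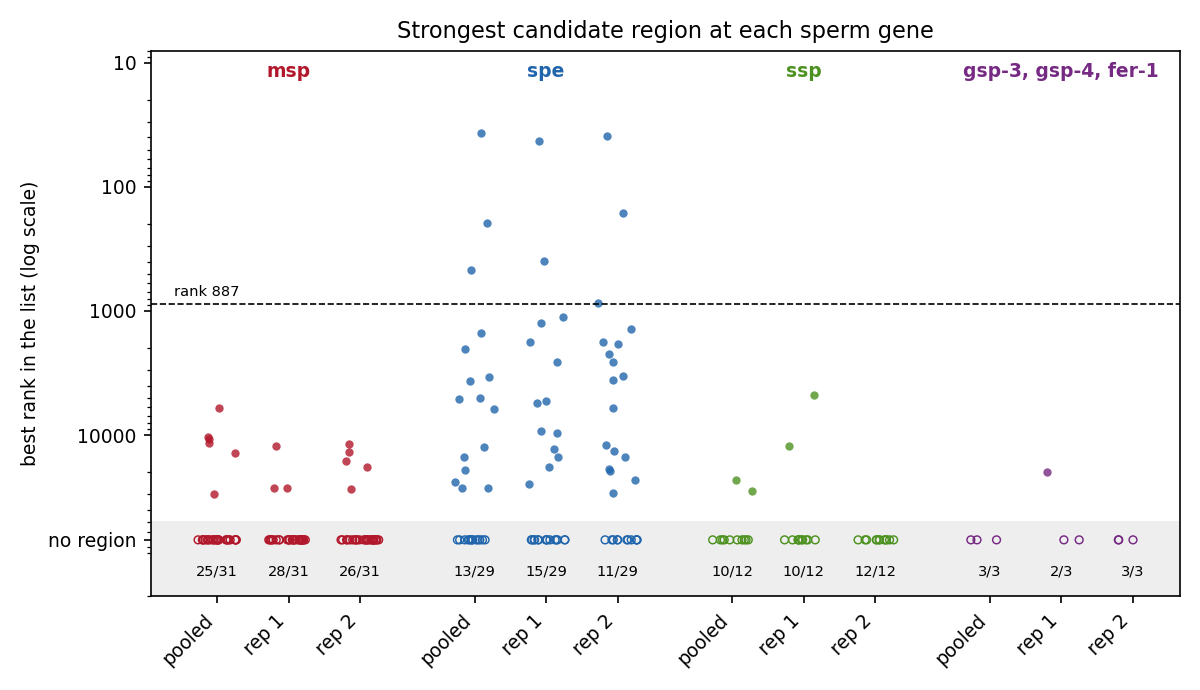
Best rank of each of the 75 sperm genes (vertical axis, log scale, strong regions at the top) in the pooled list and the lists of both replicates, by family. Filled points are genes with a region, open points in the grey band genes without one (their number of all genes of the family is printed below them), and the dashed line is the number of optimal peaks, 887. No msp, ssp or other point lies above that line in any list, whereas spe-12 is near rank 40 in all 3.

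Among the msp genes, the strongest region was at msp-49 (WBGene00003442, chrII:5194366-5194749). Its pooled rank was 6004 with a signal of 18.2, replicate 2 had rank 16059 with 6.93, and replicate 1 had no region. The summit of the pooled region lay 112 bp past the 3′ end and that of replicate 2 219 bp past it. On chromosome IV, msp-65 had pooled rank 10405 (signal 13.9) and replicate 2 rank 11869 (8.45), with summits 294 bp and 255 bp past the 3′ end. Its neighbour in rank, msp-57, had pooled rank 10808 (13.6) and replicate 2 rank 18143 (6.31), 337 bp and 305 bp past the 3′ end, and a further pooled region of rank 15279 466 bp upstream. Neither had a region in replicate 1.

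The other 3 with a pooled region lie together on chromosome II. For msp-31 the pooled rank was 11499 and the replicate 2 rank 13736, and for msp-32 they were 13926 and 27378. msp-152 had only a pooled region, of rank 29829 and signal 5.81, close to the list's lowest signal of 5.77. Replicate 1 had regions at 3 msp genes without a pooled one, msp-79 (rank 12312), msp-51 (26698) and msp-45 (26835), the last with a signal of 2.2 where the lowest of that list is 2. The region at msp-79 has its summit inside the neighbouring gene ssp-36. Of the best pooled regions of the 6 msp genes, 5 were at the same place in replicate 2 and 0 in replicate 1, whereas of the best pooled regions of the 16 spe genes 10 were found again in replicate 2, 11 in replicate 1 and 7 in both.

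All msp regions lay beside the genes, and nearly all on the 3′ side. Over the 3 candidate lists there were 15 pairs of an msp gene and a region, at 9 genes. The summit was past the 3′ end in 14, upstream in 1 and inside the gene in 0. The pooled list is made from the replicates, so some places are counted more than once. At 5 of the genes the best pooled region was at the same place in replicate 2. The 14 summits lay 112 to 487 bp past the 3′ end, with a median of 321 bp. For the pooled list alone, 6 of 7 pairs were downstream. Over all genes 16.3% of pooled pairs were downstream, 70% inside and 13.7% upstream, and at spe genes 27 of 41 were inside, 8 upstream and 6 downstream. For genes as short as these the flanks make up most of the window.

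**Figure D3:**
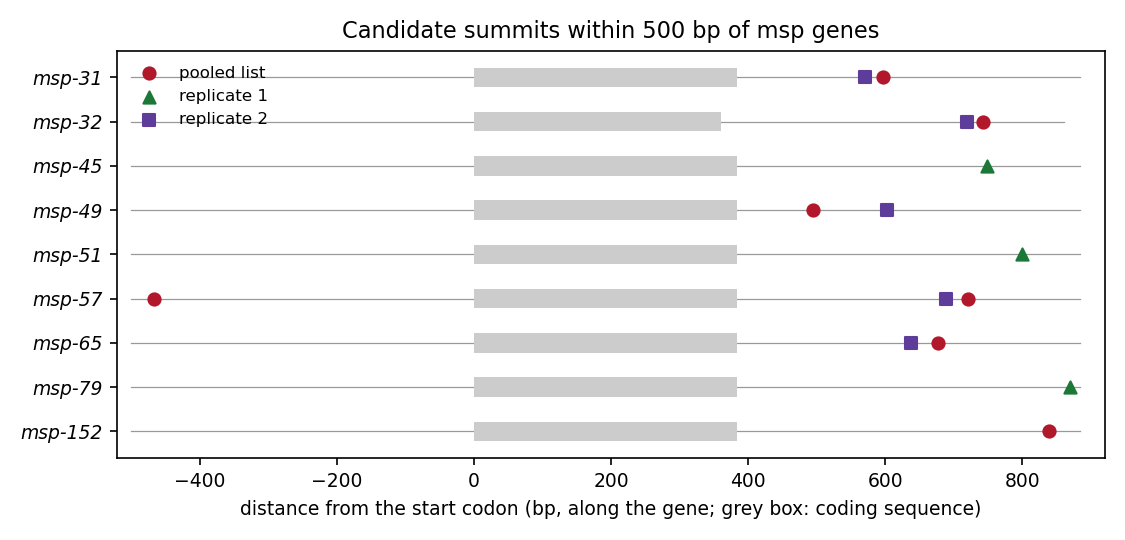
Summits of candidate regions (points) at the 9 msp genes that have any, as distance from the start codon in bp along the gene (horizontal axis). Grey boxes are the coding sequences and thin lines the window of 500 bp on each side. All points but 1 lie to the right of the box, 112 to 487 bp past the 3′ end, and none lies inside it.

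Other genes share some of these downstream regions. The regions past msp-31 are also within 500 bp of aagr-2, those past msp-32 of R05F9.9 and that past msp-152 of gst-30. The pooled summits past msp-65 and msp-57 lay 60 bp and 124 bp from sls-2.17 and sls-2.13, genes for SL2 spliced leader RNA, which is trans-spliced onto messages of operons. These are the 2 msp genes with an annotated tRNA, snoRNA or snRNA gene in their window, and both had a pooled region. Over all genes, the share with a pooled region among those with such a gene in the window was not counted. Without regions whose summit is within 250 bp of such a gene, 5 msp genes (16.1%) and 15 spe genes (51.7%) still had a pooled region, with 45.6% of all genes.

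The position of the msp regions was set beside how much of the sequence occurs only once in the genome, since reads from repeated sequence cannot be placed on a single copy. A stretch of 36 bases was called unique when it occurs once in WBcel235 on either strand. Inside msp genes the median share of unique stretches was 20.1%, with quartiles of 10.3% and 36.8%, and with 99.9% in spe genes, 90.7% in ssp genes and 100% over all genes. With the flanks included it was 70.7% for msp genes and 99.5% for spe genes. The 500 bp upstream of msp genes had a median of 91.2% and the 500 bp downstream 98.7%. The sources used here give neither the read length nor the authors' treatment of reads with several matches. With stretches of 100 bases the median of msp windows was 93.2%.

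**Figure D4:**
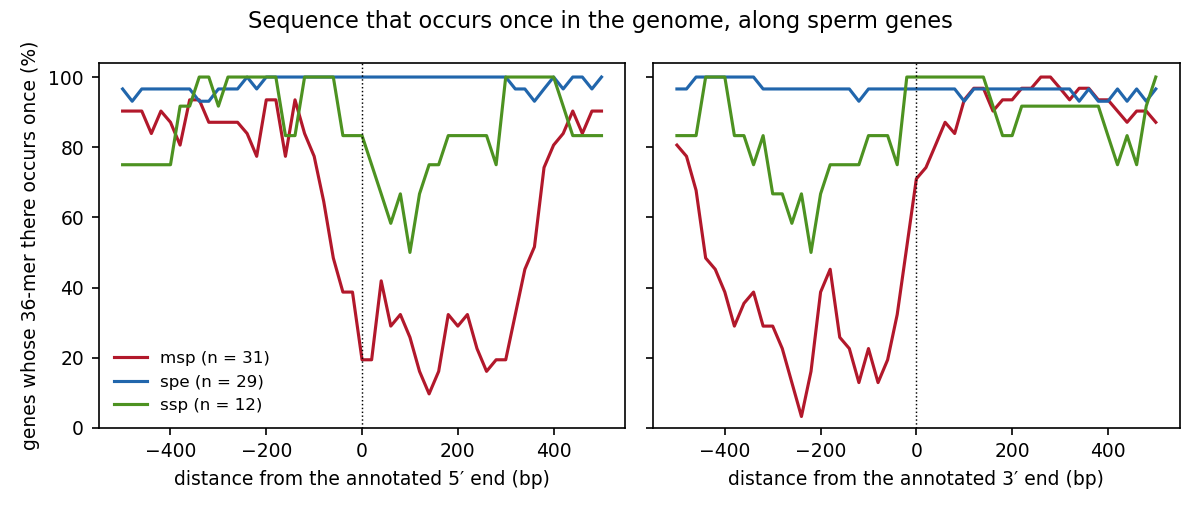
Share of genes (vertical axis, percent) whose stretch of 36 bases at a position occurs once in the genome, for msp, spe and ssp genes, against distance in bp from the annotated 5′ end (left) and 3′ end (right). The msp line falls below 50% across the coding sequence and rises again within about 100 bp past the 3′ end, and the spe line stays above 90% throughout.

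Over all genes, too, the share with a region was lower where less of the sequence was unique. Of the 550 genes whose 5′ window was under 50% unique, 11 had a pooled region there (2%), of the 1615 genes with 50% to under 90% it was 290 (18%), and of the 17808 genes with 90% or more it was 5482 (30.8%). These classes rest on stretches of 36 bases. With stretches of 100 bases the median unique share of the msp 5′ windows was 90.2%, where with 36 bases it was 59.8%. At 36 bases no msp gene is in the most unique class. Of the msp genes 8 were under 50% unique, 0 of them with a pooled region in this window, and 23 were in the middle class, 2 of them with a region. Of the spe genes 28 of 29 were in the most unique class, and 9 of these had a region. The summits themselves were rare in repeated sequence. Of 29971 pooled nuclear summits 0.454% had fewer than 50% unique stretches in the surrounding 200 bp, where 7.28% of positions taken every 100 bp along the genome did. The part of repeated sequence in the low msp counts was not tested.

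The msp genes are grouped along the chromosomes. When neighbours that start within 50 kb of each other are joined, 29 of 31 fall into 9 clusters that span 312 kb in all, and msp-76 and msp-77 stand alone. The clusters held 62 pooled regions, or 0.199 per kb, where the nuclear genome had 0.299 per kb. Replicate 1 had 0.244 per kb (genome 0.279) and replicate 2 0.186 per kb (genome 0.299). All 3 densities were below those of the genome, but most of the regions in the clusters were not at msp genes.

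The clusters differed among themselves. The cluster of msp-33 to msp-152 on chromosome II, of 42.1 kb with 4 msp genes, held 22 pooled regions (0.523 per kb) and the only optimal peak of any cluster. That peak (chrII:4911828-4912107, rank 865, signal 38) lay at btbd-10 and R05F9.11 and 4211 bp from msp-31, the nearest msp gene. On chromosome IV the longest cluster, msp-19 to msp-65, had 6 msp genes over 57.3 kb and 5 pooled regions (0.0872 per kb). The clusters of msp-63 to msp-64 (14.3 kb, 3 msp genes), msp-79 to msp-78 (4.66 kb, 2 msp genes) and msp-81 to msp-56 (6.89 kb, 3 msp genes) had none.

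Genes of other kinds between the msp genes were counted the same way. Of the 65 other protein-coding genes inside the cluster spans, 20 had a pooled region (30.8%), 8 had a pooled region in the 5′ window (12.3%) and 2 had an optimal peak. For the 29 clustered msp genes the first 2 counts were 6 (20.7%) and 2 (6.9%). On the whole of chromosome II 44.3% of protein-coding genes had a pooled region and 27.9% had one in the 5′ window, and on chromosome IV 47.7% and 29.8%. Both kinds of gene within the clusters were below the shares of their chromosomes, the msp genes more so, and this was not tested.

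**Figure D5:**
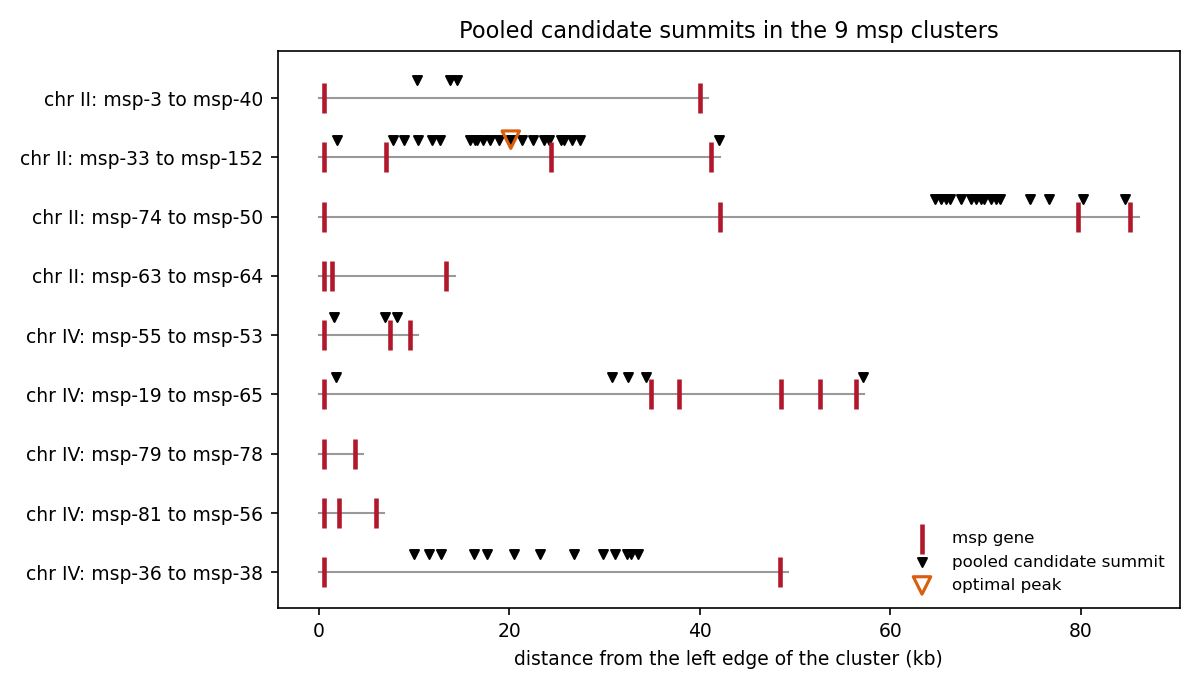
Positions of msp genes (red bars), summits of pooled candidate regions (black triangles) and the optimal peak (orange outline) in the 9 msp clusters, as distance in kb from the left edge of each cluster. The summits bunch between msp genes in the clusters msp-33 to msp-152 and msp-74 to msp-50, and 3 clusters have none.

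Among the spe genes, the strongest region was at spe-12 (WBGene00004966, chrI:8224539-8226297, minus strand), which acts in the pathway that activates spermatids. It ranked 37 in the pooled and optimal lists with a signal of 140, 43 in replicate 1 (signal 57.3) and 39 in replicate 2 (85.3). The summit lay 120 bp past the 3′ end of spe-12 and 55 bp from the snoRNA gene T02E1.9. The peak is also within 500 bp of the protein-coding gene T02E1.2, so it cannot be given to spe-12 alone.

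At spe-9 (WBGene00004963, chrI:11582743-11586069), which encodes a sperm surface protein with EGF repeats that is needed at fertilization, the peak lay inside the gene. Its rank was 197 in the pooled and optimal lists (signal 67.9), 2570 in replicate 1 (13.1) and 162 in replicate 2 (48.6). The summit was on the tRNA-Lys gene C17D12.t2, which lies inside spe-9. Further pooled regions of ranks 917 and 1402 were at C17D12.t1 (tRNA-Lys) and 24 bp from C17D12.t3 (tRNA-Leu), both also inside spe-9. Transfer RNA genes are transcribed by RNA polymerase III.

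The remaining optimal peak was at the start of spe-48 (WBGene00021771, chrI:1950594-1958527, minus strand). It had rank 465 with a signal of 49.5, and ranks of 394 in replicate 1 (25.1) and 1401 in replicate 2 (20.8). The summit lay 25 bp before the 5′ end in the pooled list and 12 bp and 28 bp before it in the replicates. The gene Y51F10.11 is also within 500 bp of it. This was the only sperm gene with an optimal peak away from annotated small RNA genes, 1 of 29 spe genes (3.45%), where all genes had 3.26%.

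By role, the spe genes are small groups, read here beside the 46.2% of all genes with a pooled region and the 39.2% with regions in both replicates. Of the 41 pairs of a spe gene and a pooled region, 20 were shared with another protein-coding gene. Of the 8 spe genes placed under fertilization, 3 had a pooled region and 2 had regions in both replicates. Besides spe-9, spe-51, which encodes a secreted sperm protein, had 6 pooled regions with a best rank of 6220, and ranks of 1111 and 3602 in replicates 1 and 2. Its strongest summits lay near the 3′ end of the gene in all 3 lists, that of the pooled list 10 bp before it, and within 500 bp of the neighbouring gene ogdh-1 in all 3. spe-36, which also encodes a secreted protein, had pooled rank 19009 and replicate 1 rank 5306, with no region in replicate 2. A region in replicate 2 alone was at spe-41 (rank 1843), a TRPC calcium channel also named trp-3. spe-38, spe-42 and spe-49, which encode membrane proteins, had none.

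Of the 8 genes of sperm activation, 7 had a pooled region and 4 had regions in both replicates, with pooled ranks from 37 to 26764. After spe-12, the best pooled ranks were those of spe-46 (3439), spe-43 (3684) and spe-47 (5082). At spe-46 the best replicate ranks were 18208 and 29251, far weaker and at other places. At the place of the pooled region, replicate 1 had rank 18465 and replicate 2 had no region. The pooled summit lay 139 bp from the SL2 RNA gene sls-2.7 and within 500 bp of the protein-coding gene W06D4.3. spe-43 had rank 2592 in replicate 2 and no region in replicate 1. For spe-47, whose product holds an MSP domain, the replicate ranks were 9243 and 1765, and the pooled summit lay 71 bp past the 3′ end, near pid-3. The other genes of the spe-8 group were weak, with pooled ranks of 15068 (spe-27), 23908 (spe-8, a tyrosine kinase) and 26764 (spe-19), and spe-29 had only a region of rank 12112 in replicate 2.

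Of the 9 genes for organelles and cytoskeleton, 5 had a pooled region and 3 had regions in both replicates. The best pooled rank was 1494 (signal 31.1), at spe-39, which acts in vesicle trafficking, with ranks of 9554 and 865 in replicates 1 and 2. All 3 summits lay upstream of spe-39, the pooled one 176 bp before the 5′ end, and within reach of the neighbouring gene spn-4, an early embryonic gene. At spe-15, a myosin of class VI and with 18862 bp the longest spe gene, 6 pooled regions had a best rank of 2015, and the replicates had ranks 1244 and 2213. The best pooled summit there lay 111 bp from the tRNA-Arg gene F47G6.t1, inside spe-15. spe-5, a subunit of the vacuolar proton pump, had pooled rank 5048 and replicate 1 rank 1772 with summits upstream, shared with chp-1, and no region in replicate 2. The presenilin spe-4 (12562, shared with unc-13) and the casein kinase spe-6 (26725) had weak pooled regions, spe-18 (14902 and 15169) and spe-26 (24647, in replicate 1 alone) had none in the pooled list, and spe-10, a palmitoyltransferase, had none at all.

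Of the remaining spe genes, spe-44, a transcription factor of the sperm programme, had regions in replicate 2 alone. The stronger, of rank 6045, was shared with dpy-26. The other, of rank 9123, had its summit 565 bp inside spe-44. spe-11, which acts in the egg after fertilization, had none. The 5 sperm genes with a region among the 5000 strongest of both replicates were spe-9, spe-12, spe-15, spe-48 and spe-51. At 3 of them, spe-9, spe-12 and spe-15, the pooled summit was within 250 bp of a tRNA or snoRNA gene. In all, 5 spe genes have a tRNA, snoRNA or snRNA gene in their window, and 4 of these had a pooled region. Without regions near tRNA, snoRNA and snRNA genes the number of spe genes with regions in both replicates was 6. The median best pooled rank of spe genes was then 15068, with 13926 for msp genes. Neither count was made over all genes, so they cannot be read as particular to spe genes.

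The ssp genes encode small proteins with an MSP domain. Pooled regions were at ssp-34 (rank 23182, signal 7.81, shared with grl-21) and ssp-36 (rank 28221, signal 6.26), both inside the gene, and replicate 1 had regions at ssp-16 (rank 4767) and ssp-36 (12312). Replicate 2 had none at any of the 12. The best ssp rank, at ssp-16, was thus found in a single replicate. gsp-3 and gsp-4, PP1 phosphatases of sperm, and fer-1, a ferlin needed for fusion of the membranous organelles, had no pooled region. gsp-3 had a region of rank 19933 in replicate 1, and the other 2 were in no list.

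Genes of related function were counted for comparison. Of 31 other sperm and spermatogenesis genes, 0 had an optimal peak, 5 had a pooled region (16.1%) and 2 had regions in both replicates (6.45%), below the shares of all genes, 46.2% and 39.2%. Their median length was 1011 bp, a pair of them shares the symbol msd-1, and the unique share of their sequence was not counted. The best pooled ranks in that list were 8707 at fog-1, which sets the sperm fate of germ cells, 9299 at zipt-7.1, a zinc transporter of sperm activation, and 12619 at nspd-3. In contrast, of 18 genes through which the oocyte and the gonadal sheath respond to MSP, 3 had optimal peaks (16.7%), namely ran-1 (rank 138), dab-1 (750) and wee-1.3 (864), 16 had a pooled region (88.9%) and 14 had regions in both replicates (77.8%). vab-1, the Eph receptor to which MSP binds, had ranks of 1273, 3937 and 2320 in the pooled list and replicates 1 and 2. These genes are long, with a median of 5230 bp, and in the 5′ window of equal size 10 of 18 had a pooled region (55.6%), against 12.9% of the other sperm genes and 29.0% of all genes.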

How the data were processed

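Chromatin bound by AMA-1 was measured in 2 biological replicates of a single group. Only lists on build ce11 (WBcel235) were used. The authors made a candidate list per replicate, a candidate list from the pooled replicates and an optimal list from these, per the file lists that accompany them. The peak caller, aligner, read filters and threshold of reproducibility were not found in the labels or headers. The deposited signal of a region is the authors' own value on a scale that is not stated, and was used only to rank regions within a list and to describe them. The summit is the deposited start plus the deposited offset. The lists hold no read counts, so depth is unknown.

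Genes came from Ensembl release 115, with the RefSeq symbol where Ensembl gave none. The members and the gene lists were chosen with earlier results of these data known. Genes named in the text were those with an optimal peak, the 5 best pooled ranks of each family, the genes among the 5000 strongest regions of both replicates, the best of each msp cluster and pathway list, and spe genes by role. Further msp and ssp genes with a region were named after their values were seen. Some members are counted in the totals but not reported individually here. With 1 group there was no comparison between conditions and no test, and shares are given with exact Clopper-Pearson 95% intervals beside those of all genes. Sequence and 5′ ends were read from the genome with the Ensembl annotation in place of RefSeq promoter tables. Stretches of 36, 50 and 100 bases were counted on both strands of the genome. The window and stretch counts were tested on simulated data. Computation ran in Python 3.11.15, with pandas 2.3.3 and numpy 2.4.6 for tables, scipy 1.17.1 for intervals, Biopython 1.88 for translation and matplotlib 3.10.9 for figures.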

Additional observations from a re-analysis of the deposited data

How the results depend on the processing

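All counts rest on 2 replicates of a single group with no depth given, and members share sequence, so no spread between animals stands behind a share. With a window of 250 bp, 2 msp genes had a pooled region. With 1000 bp it was 12, with 2 msp genes in both replicates and spe-36 as a further gene with an optimal peak. Within 500 bp of the 5′ end 1 sperm gene had an optimal peak, 2 msp and 9 spe genes had a pooled region, 3 spe genes had regions in both replicates, and the median spe rank was 20688 and the median msp rank 10641.5, the reverse of the order within 500 bp of the gene. That msp median rests on 2 genes, and the summit at msp-49 is also past its 3′ end. Among the 10000 strongest regions of each list, 1 msp and 10 spe genes had a pooled region. Shares over all genes were not counted for the windows of 250 bp and 1000 bp or for the 10000 strongest regions. The shifts under these settings can therefore not be read as particular to sperm genes. Away from small RNA genes, an alternative chosen after seeing the data, 1 sperm gene had an optimal peak, 6 spe genes had regions in both replicates and the median spe rank was 15068 and the median msp rank 13926, again in the reverse order. With a single replicate in place of the pooled list, msp genes with a region numbered 3 to 5, spe genes 14 to 18, the median msp rank was 16059 to 26698 and the median spe rank 3486.5 to 5436.5. The median unique share of msp windows was 93.2% with stretches of 100 bases and 20.1% without the flanks. In every one of these alternatives fewer msp than spe genes had a pooled region. The cause of these shifts was not tested. No paired analysis was possible because there is 1 group only.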

Other observations

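Markers of other tissues were counted by the same rule as the sperm genes. Over all genes, 46.2% had a pooled region and 4.48% an optimal peak. Of 22 oocyte and maternal genes, 15 had a pooled region (68.2%) and 4 had an optimal peak (18.2%), namely pie-1 (rank 294), cbd-1 (484), chs-1 (501) and cpg-1 (729), the last 3 genes of the eggshell. All 8 neuronal genes had a pooled region, with optimal peaks at snb-1 (rank 435) and unc-119 (rank 779). The pie-1 promoter, the 3′UTR of puf-5 and unc-119 are also parts of the transgene. The gene puf-5 is among the oocyte and maternal genes, with pooled rank 1352. What extra copies add to the ranks of pie-1, puf-5 and unc-119 was not tested. Of the muscle genes 4 of 8 had a pooled region, of the intestinal genes 4 of 10 and of the cuticle genes 2 of 6, with an optimal peak at none of these 24. Gene length differed, with medians of 2275 bp (oocyte and maternal), 6368 bp (neuron), 7554 bp (muscle), 5130 bp (intestine) and 1168 bp (cuticle), where all genes had 2027 bp. In the equal 5′ window, where 29.0% of all genes had a pooled region, the counts were 10 of 22, 4 of 8, 1 of 8, 2 of 10 and 1 of 6 in the same order.

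RefSeq gives spe or ssp symbols to 6 further genes, which the rule on Ensembl symbols left out. Of these, spe-58, spe-21, spe-40 and spe-55 were in no candidate list, and spe-57 had only a region of rank 21347 in replicate 1. The gene that RefSeq calls ssp-28 and Ensembl spp-28 had pooled rank 1728, with ranks of 4982 and 26693 in replicates 1 and 2, a better pooled rank than any of the 12 ssp genes of the rule.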
